A study of Mus musculus with 28 samples.

Results

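Expression of macrophage marker genes was examined in developing mouse molars, with 1 RNAseq library for each tooth germ. The members are 10 genes that are commonly used to recognize macrophages, Adgre1, Cd68, C1qa, C1qb, C1qc, Mrc1, Cx3cr1, Tyrobp, Lyz2, and Aif1, and they were found by gene symbol among the 52636 genes of the table of read counts. The rule uses gene names and no measured value, although the list was drawn up with earlier results of these data known. All 10 were present, and all 10 passed the filter on low counts that kept 19101 genes for testing. The teeth are from wild type C57BL/6JOlaHsd mouse embryos that received no treatment, with 7 teeth each at the bud (E13), cap (E14), and bell (E16) stages. The ages in the labels are E13.5 for the bud, E14.5 for the cap, and E16.5 for the bell stage teeth. A second table adds 6 lower first molars of the same strain, labelled wild type and aged E15, from 6 embryos. The 7 teeth are from 7 embryos at E13, 6 embryos at E14, and 5 embryos at E16, so that 3 embryos gave both a left and a right tooth. The study left little surrounding tissue on the dissected tooth germs, and each library is a mixture of all the cells in 1 tooth germ.

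Macrophages are phagocytes that enter embryonic organs early, clear dying cells, and remain as resident cells. Their development depends on the receptor Csf1r, its ligands Csf1 and Il34, and the transcription factor Spi1 (PU.1). They take up debris with scavenger and lectin receptors, bind complement-tagged material, and signal through adaptors such as Tyrobp. No single gene of the 10 is exclusive to macrophages, as Cd68 and Tyrobp are also made by osteoclasts, Lyz2 by neutrophils and monocytes, and Mrc1 by some endothelial cells.

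The libraries held between 17814073 and 27115729 counts. The tissues of a tooth germ were represented, with 7 of 7 dental epithelium genes and 8 of 8 jaw mesenchyme genes passing the filter. Some libraries stood apart. At E16 the left tooth of embryo 3 had the fewest counts, and its mesenchyme genes summed to 2872 CPM (counts per 1000000 counts of the scaled library), where the other E16 teeth ranged from 8573 to 10684 CPM. Its summed level of the endothelial genes was 216 CPM, below the 471 to 565 CPM of the other E16 teeth. The left tooth of embryo 7 at E13 had 1230 CPM of skeletal muscle genes, where the other E13 teeth had 34.3 to 195 CPM. At E14 the left tooth of embryo 8 had 899 CPM of osteoblast genes, where the other E14 teeth had 157 to 380 CPM, and the highest sum of monocyte genes (77.8 CPM). The monocyte gene with the most counts over all teeth was Nr4a1 (9136), followed by Ace (1403). The part of monocytes in that sum was not tested. No call of a member changed without this tooth. Where a call of a member changed without one of the other teeth, the value is given with the gene.

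Per length of exon, which allows levels of different genes to be compared, Cd68 was the highest of the 10 genes at every stage and Aif1 the lowest. The mean level of Cd68, a lysosomal glycoprotein of phagocytes, rose from 6.68 ± 0.75 CPM per kilobase in the E13 teeth to 10.6 ± 2.8 in the E14 teeth and 16.6 ± 7.0 in the E16 teeth (SD, n = 7 per stage). Aif1, an actin-binding protein also called Iba1, had 0.40 ± 0.22, 0.64 ± 0.28, and 0.93 ± 0.22 CPM per kilobase. The order at E13 was Cd68, Lyz2, C1qb, C1qa, Mrc1, Tyrobp, C1qc, Cx3cr1, Adgre1, and Aif1. Neighbours were compared within teeth, and the steps from Lyz2 to C1qb and all those from C1qa down to Cx3cr1 were smaller than their SD over the 7 teeth. Tyrobp moved from place 6 at E13 to place 4 at E14 and place 3 at E16, while Cd68, Lyz2, Mrc1, C1qc, Cx3cr1, Adgre1, and Aif1 kept their places. At E16 the steps from Cd68 to Lyz2, from Lyz2 to Tyrobp, from Tyrobp to C1qb, and from Mrc1 to C1qa did not exceed their SD, so the upper end of that order is not fixed.

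Summed over the 10 genes, E13 teeth had 51.3 ± 8.2 CPM, E14 teeth 84.9 ± 13.8 CPM, and E16 teeth 122 ± 12 CPM (SD, n = 7 per stage). The sum ranged from 42.0 to 67.5 CPM at E13, from 67.4 to 103 CPM at E14, and from 101 to 135 CPM at E16, so that E13 and E16 teeth did not overlap. In whole teeth, a change in the number of macrophages and a change in RNA per macrophage cannot be told apart.

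**Figure D1:**
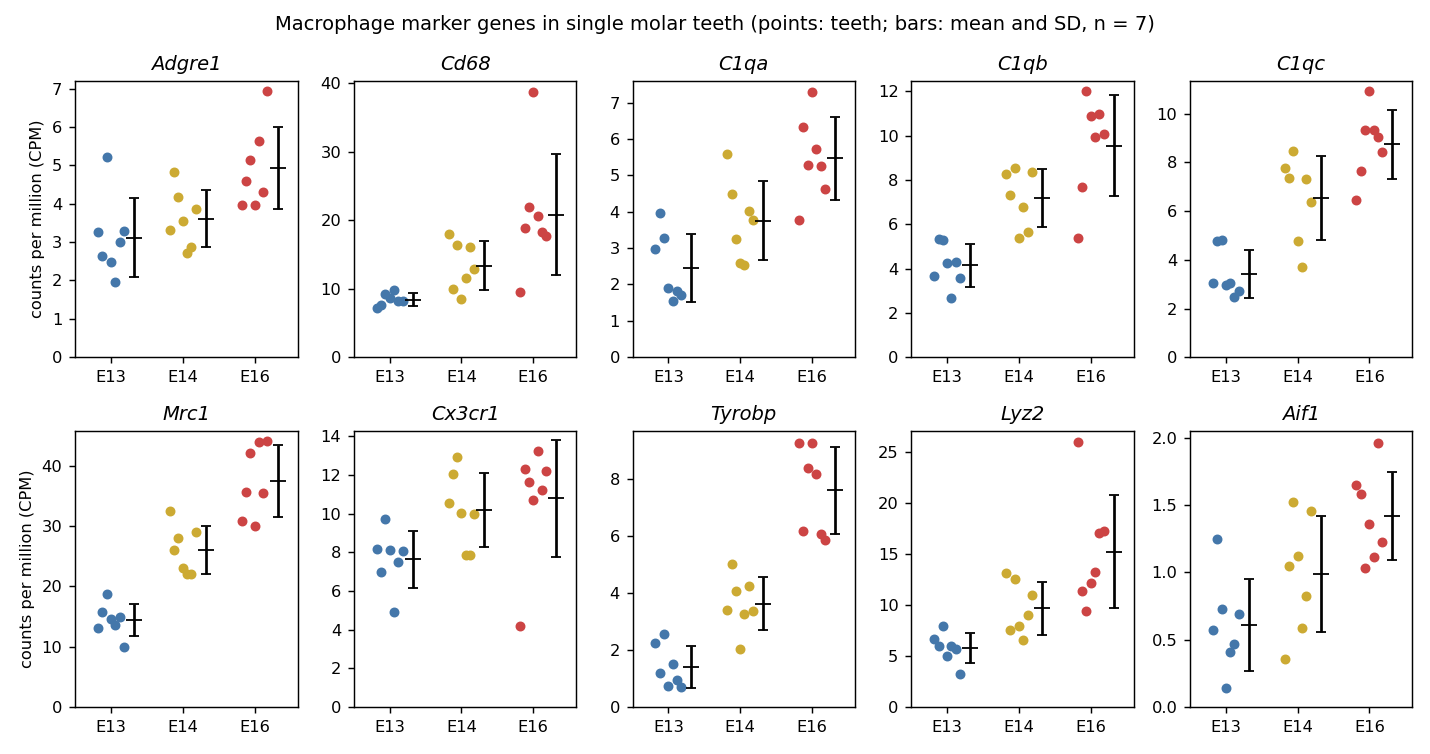
Level of each macrophage marker gene in CPM (vertical axes, linear and from 0) in the 7 teeth of E13, E14, and E16. Points are single teeth and bars are the mean and SD, and Tyrobp is the gene whose E16 teeth are all above all its E14 teeth.

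Between the bud and the bell stage all the macrophage markers were higher. In the edgeR test of E16 against E13, 10 of 10 were called higher at an adjusted p below 0.05, and none lower, where 21.6% of all tested genes were called higher and 19.6% lower. Their median log2 fold change was 1.27, beside -0.01 for all tested genes. From E13 to E14, 6 of 10 were called higher (all tested genes, 11.3% higher and 8.47% lower) with a median of 0.72, and from E14 to E16, 4 of 10 were called higher (all tested genes, 15% higher and 13.1% lower) with a median of 0.52. No member was called lower in any of these comparisons, which share the E13, E14, or E16 teeth with one another. For 5 of 10 genes, C1qb, C1qc, Mrc1, Tyrobp, and Lyz2, every E16 tooth was above every E13 tooth, where 9.80% of all tested genes had such separated stages in this direction. Separated stages were found for 2 of 10 genes from E13 to E14 (6.36% of all tested genes), and for 1 of 10 from E14 to E16 (5.85%).

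**Figure D2:**
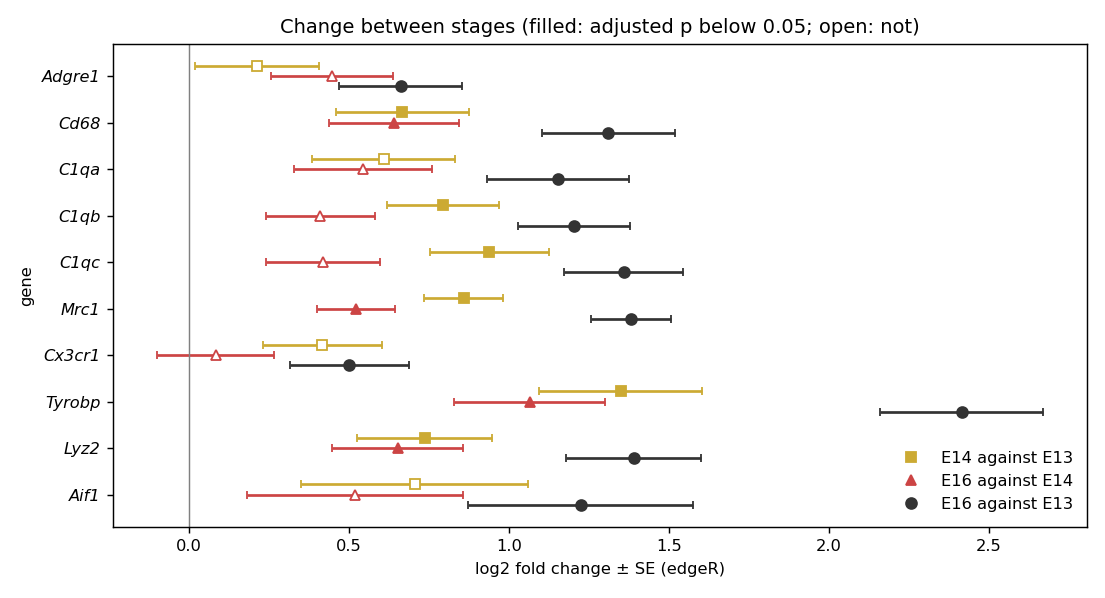
Log2 fold change with its standard error (horizontal axis, edgeR) of each macrophage marker gene (vertical axis) in the 3 comparisons of stages. Filled symbols have an adjusted p below 0.05, and all 10 symbols for E16 against E13 are filled, with Tyrobp at 2.41.

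The lysosomal and uptake genes were examined first. Cd68 ranged from 7.13 to 9.87 CPM at E13 (median 8.24), from 8.52 to 17.9 CPM at E14 (median 12.9), and from 9.57 to 38.7 CPM at E16 (median 18.8). The E13 teeth were close together, with a coefficient of variation of 11.2%, and it was 26.7% at E14 and 42.4% at E16, or 24.4% at E16 without the left tooth of embryo 6. Cd68 rose by 0.67 ± 0.21 on the log2 scale from E13 to E14 (SE, edgeR adjusted p = 0.0246), and by 0.64 ± 0.20 from E14 to E16 (adjusted p = 0.0193). The first of these calls was lost when the right tooth of embryo 1, the right tooth of embryo 3, or the left tooth of embryo 6 at E14 was left out (adjusted p = 0.0569, 0.0533, and 0.0549). Both ends of the E16 range were single teeth that stood apart. The lowest was the left tooth of embryo 3, and the highest the left tooth of embryo 6, without which the change from E14 to E16 was 0.44 (edgeR adjusted p = 0.0626). This call was also lost when the teeth of an embryo were summed (0.57, adjusted p = 0.0544). That tooth of embryo 6 also had the highest sum of the 11 osteoclast genes, 700 CPM, where the other E16 teeth had 249 to 535 CPM, and the part of the osteoclast genes in the level of Cd68 was not tested.

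Mrc1 encodes the mannose receptor, a lectin that takes up glycoproteins. It was the most precisely measured of the 10 genes, with a coefficient of variation between teeth of 16.2% in the edgeR fit, where the median over all tested genes was 18.8%. The Mrc1 level ranged from 9.93 to 18.7 CPM at E13 (median 14.55), from 21.97 to 32.4 CPM at E14 (median 26.1), and from 30.0 to 44.1 CPM at E16 (median 35.6). E13 did not overlap with either later stage, whereas E14 and E16 overlapped. Mrc1 rose by 0.86 ± 0.12 on the log2 scale to E14 (SE, edgeR adjusted p = 1.88e-05) and by a further 0.52 ± 0.12 to E16 (adjusted p = 0.00200).

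Lyz2, the lysozyme of myeloid cells, is nearly identical to its neighbour Lyz1, and how reads that fit both were counted is not given in the sources used here. Lyz2 ranged from 3.24 to 7.91 CPM at E13 (median 5.94), from 6.53 to 13.1 CPM at E14 (median 9.04), and from 9.42 to 26.0 CPM at E16 (median 13.2). All the E16 teeth were above all the E13 teeth, and the highest E16 value was again from the left tooth of embryo 3. The rise from E13 to E16 was 1.39 ± 0.21 on the log2 scale (SE, edgeR adjusted p = 8.35e-06), and it was 1.22 without that tooth (adjusted p = 5.60e-06). In the same libraries the neutrophil list, whose cells also make lysozyme, had 4 of its 11 genes tested and 1 called higher at E16 than at E13, its summed level was 2.24 to 12.9 CPM at E13 and 3.99 to 5.94 CPM at E16, and the gene called was Csf3r, at 0.74 ± 0.39 CPM at E13 and 1.84 ± 0.52 CPM at E16. Csf3r is also made by monocytes. Of the other neutrophil genes, Ly6g, named after its values were seen, had no counts in any tooth and S100a8, S100a9, and Prtn3 had 228 to 515 counts over all teeth. The part of neutrophils in the level of Lyz2 was not tested.

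Adgre1, the adhesion receptor known as F4/80, was among the least changed. Adgre1 was at 1.96 to 5.21 CPM at E13 (median 3.02), 2.70 to 4.82 CPM at E14 (median 3.55), and 3.96 to 6.95 CPM at E16 (median 4.58). The stages overlapped throughout, and a single E13 tooth, the left tooth of embryo 3, was at 5.21 CPM with the next E13 tooth at 3.29 CPM. Adgre1 rose from E13 to E16 by 0.66 ± 0.19 on the log2 scale (SE, edgeR adjusted p = 0.00727), while the steps to E14 of 0.21 ± 0.19 (adjusted p = 0.474) and from E14 to E16 of 0.45 ± 0.19 (adjusted p = 0.0810) did not pass the test. The later step of Adgre1 was 0.51 and passed without the left tooth of embryo 3 at E16 (edgeR adjusted p = 0.0427), and it also passed without the left tooth of embryo 3 at E13 or the right tooth of embryo 2 at E14 (adjusted p = 0.0445 and 0.0422).

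C1qa, C1qb, and C1qc encode the chains of C1q, which recognizes bound antibody and dying cells and starts the classical complement pathway. In the GRCm38 annotation the genes lie side by side on the minus strand of chromosome 4, C1qb at chr4:136880129-136886187, C1qc at chr4:136889804-136893065, and C1qa at chr4:136895917-136898803, within 18675 bases. All of them were higher at E16 than at E13, by 1.15 ± 0.22, 1.205 ± 0.175, and 1.36 ± 0.19 on the log2 scale for C1qa, C1qb, and C1qc, respectively (SE, edgeR adjusted p = 1.70e-04, 4.61e-06, and 1.97e-06). C1qb ranged from 2.66 to 5.34 CPM at E13, from 5.36 to 8.56 CPM at E14, and from 5.37 to 12.003 CPM at E16. C1qc ranged from 2.46 to 4.83 CPM at E13, from 3.70 to 8.48 CPM at E14, and from 6.46 to 10.9 CPM at E16. For C1qa the ranges were 1.56 to 3.96, 2.54 to 5.60, and 3.77 to 7.30 CPM, and the E13 and E16 teeth overlapped. C1qb and C1qc passed the test already from E13 to E14, at 0.79 ± 0.18 and 0.94 ± 0.19 on the log2 scale (SE, edgeR adjusted p = 0.00208 and 7.17e-04), whereas C1qa at 0.61 ± 0.22 did not (adjusted p = 0.0561), although it passed without any of 5 teeth, the left teeth of embryos 2 and 3 at E13, the right teeth of embryos 5 and 6 at E14, and at E16 the left tooth of embryo 3 (adjusted p = 0.0183 to 0.0425). None of them passed from E14 to E16 with all teeth (edgeR adjusted p = 0.0626, 0.0731, and 0.0829), and all of them did without the left tooth of embryo 3 at E16, at 0.63, 0.53, and 0.50 on the log2 scale (edgeR adjusted p = 0.0234, 0.00716, and 0.0308). For this step C1qa also passed without the left tooth of embryo 2 or 7 at E13 or the right tooth of embryo 1 at E14 (adjusted p = 0.0479, 0.0495, and 0.0221), C1qc without the right tooth of embryo 3 at E14 (adjusted p = 0.0431), and C1qb without the left tooth of embryo 5 at E16 (adjusted p = 0.0498).

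The proportions of the chains were compared within teeth. Per length of exon the ratio of C1qb to C1qa had a median of 1.64 at E13, 1.98 at E14, and 1.66 at E16, with a range over all 21 teeth of 1.16 to 2.55. The ratio of C1qa to C1qc had medians of 1.26, 1.10, and 1.08, and a range of 0.71 to 1.81, so that either could be the higher one. The ratio of C1qb to C1qc had medians of 2.13, 1.90, and 1.89 and a range of 1.38 to 3.25. The SD of these ratios at a stage was between 0.20 and 0.39 on the log2 scale, and the medians of the stages lay within the range of the other stages for each pair.

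The promoters of 7 of the 10 members are available from RefSeq (GRCm38.p6), and were searched because Spi1 controls many macrophage genes. The window was the 250 bases before and 50 bases after the start of the gene, and the motif AGGAAGT, the core of the sequence that PU.1 recognizes, was searched on both strands. It was found in 4 of 7 promoters of members, those of Mrc1, C1qb, C1qc, and Lyz2, and in 9.35% of the 32851 promoters in the table. Only matches that ended before the start site are shown, while the counts use the whole window. Each match shown read as the reverse complement on the strand of the gene. The following stretches show these matches in capitals with 20 bases on either side, 5′ to 3′ on the strand of the gene.
Mrc1 (chr2:14229183-14229229, plus strand): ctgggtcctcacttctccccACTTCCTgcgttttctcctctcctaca
C1qb (chr4:136886227-136886273, minus strand): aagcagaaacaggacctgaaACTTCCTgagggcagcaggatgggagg
C1qc (chr4:136893083-136893129, minus strand): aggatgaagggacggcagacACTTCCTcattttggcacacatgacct
Lyz2 (chr10:117282346-117282392, minus strand): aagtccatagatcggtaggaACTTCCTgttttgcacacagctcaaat
The match ended 204 bases before the start site in Mrc1, 46 in C1qb, 188 in C1qc, and 93 in Lyz2. These distances are to the RefSeq start sites, which lie 13 bases upstream of the gene start of the annotation given above in C1qb, and 22, 151, and 49 bases downstream of it in Mrc1, C1qc, and Lyz2. The longer motif GAGGAAGT, which contains the first, was found in 1 of 7 promoters, that of C1qc, and in 3.20% of all promoters. A match of letters is a description of the sequence, and binding was not measured.

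Tyrobp, also called DAP12, is the adaptor through which Trem2 and related receptors signal, and it changed the most of the 10 genes. The Tyrobp level ranged from 0.69 to 2.56 CPM at E13 (median 1.198), from 2.03 to 5.02 CPM at E14 (median 3.39), and from 5.85 to 9.25 CPM at E16 (median 8.17). E14 overlapped with E13 only at its lowest tooth, and E16 was separate from both. The rise was 1.35 ± 0.25 on the log2 scale from E13 to E14 (SE, edgeR adjusted p = 4.28e-04), 1.06 ± 0.24 from E14 to E16 (adjusted p = 0.00123), and 2.41 ± 0.25 from E13 to E16 (adjusted p = 3.14e-08). At E13 the values rest on 13 to 55 counts per tooth, and the coefficient of variation there was 52.1%.

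Cx3cr1, the receptor for the chemokine Cx3cl1, changed the least from E13 to E16, while from E13 to E14 Adgre1 changed less. The Cx3cr1 level ranged from 4.91 to 9.70 CPM at E13 (median 8.07), from 7.85 to 12.9 CPM at E14 (median 10.03), and from 4.20 to 13.2 CPM at E16 (median 11.6). The stages overlapped, and the lowest value of all was from the left tooth of embryo 3 at E16, with the next E16 tooth at 10.7 CPM. Cx3cr1 was higher at E16 than at E13 by 0.50 ± 0.19 on the log2 scale (SE, edgeR adjusted p = 0.0322), by 0.65 without that tooth (adjusted p = 2.05e-04). The step from E13 to E14 was 0.42 ± 0.19 (edgeR adjusted p = 0.117), and it passed the test without that tooth in the fit (0.42, adjusted p = 0.0154). The call from E13 to E16 was the least stable of the 10. It was lost without any of 5 other teeth, with an edgeR adjusted p of up to 0.0663. These were the left tooth of embryo 2 or 7 at E13, and the left tooth of embryo 5 or 8 or the right tooth of embryo 7 at E16. It was also lost when the teeth of an embryo were summed, with an adjusted p of 0.0736. The annotated Cx3cr1 gene overlaps 9 other genes and shares 78 exon bases with the antisense gene Gm33858. The strand setting of the counting is not given in the sources used here, so reads of that stretch could not be told apart.

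Aif1 was the gene with the fewest counts, between 3 and 27 per tooth at E13, 8 and 39 at E14, and 21 and 54 at E16. The level ranged from 0.14 to 1.24 CPM at E13 (median 0.57), from 0.35 to 1.52 CPM at E14 (median 1.04), and from 1.03 to 1.96 CPM at E16 (median 1.36). Neighbouring stages overlapped widely, and the lowest E16 tooth was below the highest E13 tooth. The rise from E13 to E16 was 1.22 ± 0.35 on the log2 scale (SE, edgeR adjusted p = 0.00688), and neither of the single steps passed the test (adjusted p = 0.171 and 0.271).

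To examine whether the rise was faster in one of the steps, the change from E14 to E16 was compared with that from E13 to E14. None of 10 members differed between the steps in edgeR (0 also at an unadjusted p below 0.05, and 0 of 10 with DESeq2 and with limma voom), where 13.7% of all tested genes differed in either direction. The smallest adjusted p was 0.296, for C1qc, whose difference was -0.52 ± 0.31 on the log2 scale. The steps differ in length, since E14 to E16 covers more time, and the standard errors of these differences were 0.21 to 0.59.

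The genes did not rise by the same amount. Within teeth, the log2 ratio of Tyrobp to Cx3cr1 counts was -2.55 ± 0.76 at E13 and -0.45 ± 0.76 at E16 (SD, n = 7 teeth each), a change of 2.09, and of 1.83 without the left tooth of embryo 3 at E16. In all its 9 pairs Tyrobp was the gene that gained, and in all its 9 pairs Cx3cr1 was the gene that lost. Of the 45 pairs, 5 had no overlap of the E13 and E16 teeth, and these were Tyrobp with Cx3cr1, Adgre1, C1qa, and Lyz2, and Mrc1 with Cx3cr1. The log2 ratio of Mrc1 to Cx3cr1 was 0.91 ± 0.37 at E13 and 1.85 ± 0.47 at E16. These ratios need no scaling between libraries and are given as a description without a test.

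A second deposited table of counts estimated with salmon includes the intermediate stage E15 (6 teeth from 6 embryos), and lists 8 of the 10 genes, all but Cd68 and Lyz2. It was analysed on its own, and its values are not set against those of E14. A further E15 sample has no counts in this table. The study describes no E15 mouse teeth. In comparisons with E15, a difference of stage and a difference in how the teeth were prepared or sequenced cannot be told apart. All 8 genes were called higher at E15 than at E13 in edgeR (all genes tested in this table, 18.3%), by between 0.77 for Adgre1 and 1.82 for Tyrobp on the log2 scale. From E15 to E16, 0 of 8 were called (all genes, 6.33% in either direction), and 2 of 8 had an unadjusted p below 0.05. Mrc1 in this table was at 16.4 ± 3.0 CPM at E13, 43.4 ± 6.5 CPM at E15, and 43.2 ± 6.1 CPM at E16 (SD, n = 7, 6, and 7 teeth), so that all the E15 teeth were above all the E13 teeth. Cx3cr1 was highest at E15, at 18.5 ± 5.2 CPM beside 9.17 ± 1.78 CPM at E13 and 13.2 ± 2.8 CPM at E16, and its change from E15 to E16 was -0.48 on the log2 scale (edgeR adjusted p = 0.156). Tyrobp was at 1.60 ± 0.77, 5.70 ± 2.42, and 9.0 ± 2.2 CPM, and its change from E15 to E16 was 0.66 (adjusted p = 0.227). From E13 to E16, 8 of 8 were called higher in this table (all genes, 21.7%). The E13 and E16 teeth of this table are the same teeth as in the first table, so this is not an independent result.

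**Figure D3:**
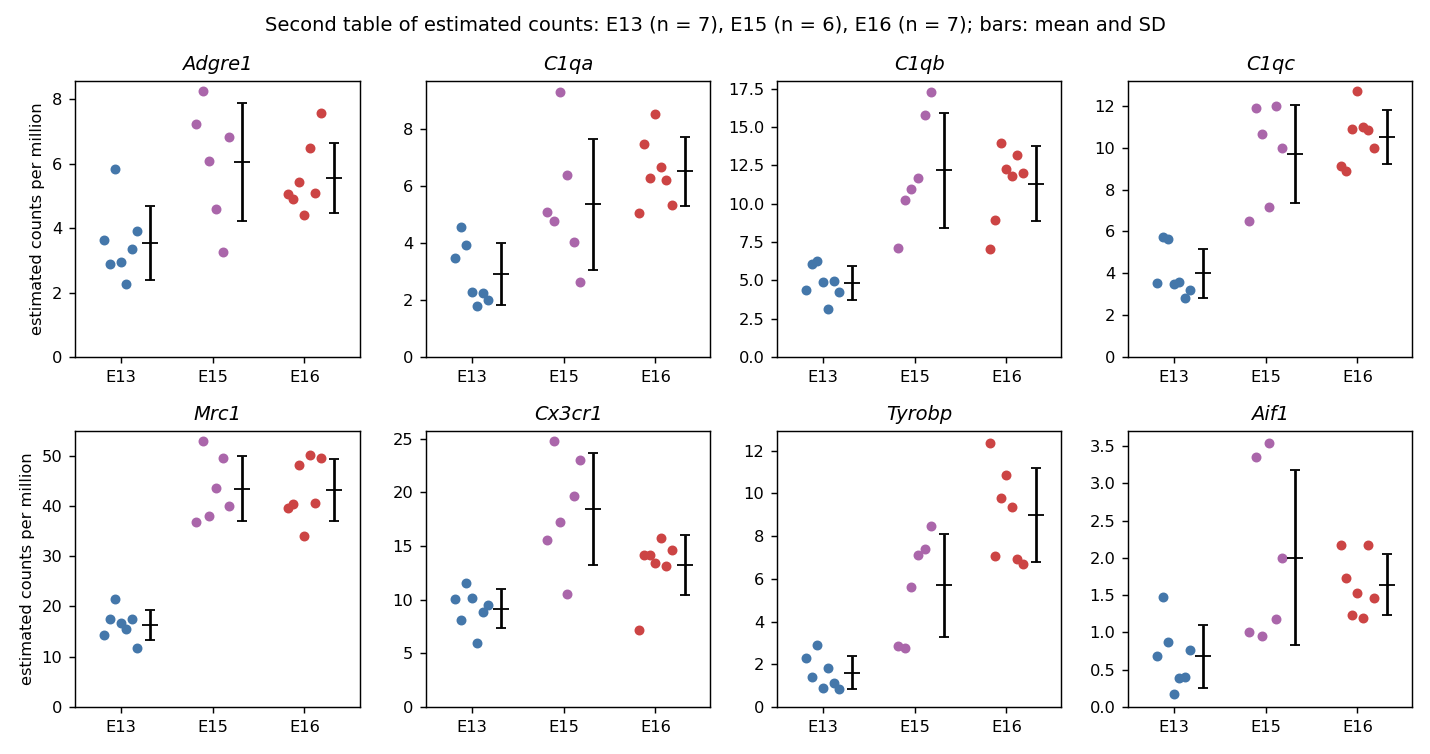
Level of 8 macrophage marker genes in the second table, in CPM of estimated counts (vertical axes, linear and from 0), at E13, E15, and E16. Points are single teeth and bars are the mean and SD, and all the E15 teeth are above all the E13 teeth for Mrc1, C1qb, and C1qc.

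Among teeth of the same stage, most pairs of members varied in the same direction. After subtraction of the stage means, 38 of the 45 pairs of members had a positive correlation of log2 CPM over the 21 teeth, with a median r of 0.28 (84.4% of pairs, where 49.6% of the pairs of all tested genes were positive). The genes of a tooth are read from the same library, and some teeth are from the same embryo, so these values are descriptions. The highest was C1qa with C1qc (r = 0.78), followed by C1qb with Cx3cr1 (r = 0.71), and the lowest was Cx3cr1 with Lyz2 (r = -0.29). At E13 the left tooth of embryo 3 was above the stage mean for all 10 members, and at E14 the right tooth of embryo 6 was above it for none. At E16, embryo 3 gave a left tooth with the lowest value of its stage for 6 members, Adgre1, Cd68, C1qa, C1qb, C1qc, and Cx3cr1, and the highest for Lyz2.

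**Figure D4:**
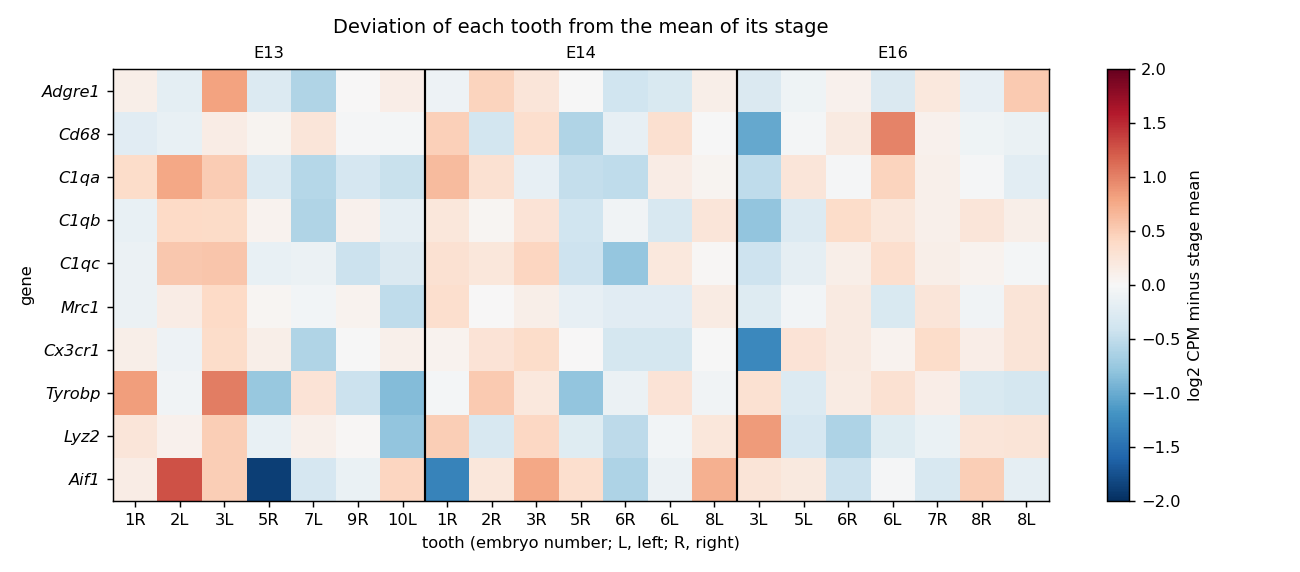
Deviation of log2 CPM from the mean of the stage (colour scale, red above and blue below) for the 10 macrophage marker genes (vertical axis) in the 21 teeth (horizontal axis, embryo number and side). The left tooth of embryo 3 is red for all genes at E13, and at E16 the same label, from a different embryo, is blue for Cx3cr1 and Cd68 and red for Lyz2.

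Among all other tested genes, Slc11a1, a metal transporter of phagosomes, followed the mean of the members most closely over the 21 teeth after subtraction of stage means (r = 0.81). It was followed by Tmem176a (r = 0.78), Rab3d (r = 0.78), Bcl3 (r = 0.78), Kidins220 (r = 0.76), the kinase Lyn (r = 0.75), Plau (r = 0.75), the macrophage gene Mpeg1 (r = 0.74), Svil (r = 0.74), and Npr1 (r = 0.74). The members themselves ranged from 0.83 for C1qc to 0.15 for Aif1 when each was compared with the mean of the other 9. Lyz2 was at 0.18, and Cd68 at 0.30. These values depend on the left tooth of embryo 3 at E16. Against the mean of all members, itself included, Lyz2 was at 0.34 with that tooth and 0.67 without it. For Cd68 the values were 0.44 and 0.29.

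Left and right teeth did not differ detectably. None of the 10 members was called between sides in edgeR with stage as a factor (0 also at an unadjusted p below 0.05), and no gene of all those tested was called (0%). The differences between right and left were between -0.40 ± 0.29 for Aif1 and 0.21 ± 0.15 for Cx3cr1 on the log2 scale. In the 3 embryos with both teeth, the mean absolute difference of Cx3cr1 between the teeth of an embryo was 0.08 on the log2 scale, where it was 0.45 between teeth of different embryos at the same stage. For Adgre1 these values were 0.38 and 0.36. The difference within embryos was the smaller one for 7 of 10 members, from 3 pairs of teeth only.

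Genes that macrophages use together with the members were then examined. Spi1 rose from 2.44 ± 1.32 CPM at E13 to 5.10 ± 1.59 CPM at E14 and 9.28 ± 3.58 CPM at E16 (SD, n = 7 teeth each), a log2 fold change from E13 to E16 of 1.91 (edgeR adjusted p = 6.35e-05). Of the 12 transcription factors of macrophage development, 6 were called higher from E13 to E16 and none lower, among them Cebpb (1.47), Maf (1.06), and Runx1 (0.71), while Zeb2 was at -0.09 (adjusted p = 0.397). Maf, Runx1, and Zeb2 are also expressed by mesenchyme, and their mean levels over all teeth were 9.77 to 27.6 CPM per kilobase, beside 2.08 for Spi1. Csf1r, named here after its values were seen, was at 12.1 ± 3.1, 22.02 ± 1.97, and 38.6 ± 12.3 CPM, and its log2 fold change from E13 to E16 was 1.67 (edgeR adjusted p = 3.07e-08).

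Of the 14 growth factors and chemoattractants that act on macrophages, 7 passed the filter, and 4 of these were called higher and 1 lower from E13 to E16. Csf1 rose by 0.97 (edgeR adjusted p = 6.07e-07), with 24.2 ± 2.0 CPM at E13 and 47.3 ± 10.6 CPM at E16. Il34, the other ligand of Csf1r, rose by 2.24 (adjusted p = 3.20e-04) from a low level of 0 to 10 counts per tooth at E13. With so few counts at E13, Il34 could pass the filter only through later teeth. Its rise is therefore partly set by the filter. Gas6, a bridging molecule that links dying cells to phagocytes, rose by 1.60, Tgfb1 by 0.90, and Cxcl12 fell by 1.28 on the log2 scale (adjusted p = 3.24e-08, 2.35e-04, and 4.90e-11). Cx3cl1, the ligand of Cx3cr1, was at -0.21 from E13 to E16 (adjusted p = 0.397), and fell by 0.53 from E14 to E16 (adjusted p = 0.0378).

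Further genes shared by macrophages and other myeloid cells were then counted. Of 25 such genes, all of which passed the filter, 21 were called higher from E13 to E16, with the largest changes in Ms4a7 (2.05), Fcgr2b (2.05), Pf4 (1.97), and Lst1 (1.86). The only one called lower was Coro1a, an actin-binding protein of leukocytes, at -0.59 (edgeR adjusted p = 0.00828), and it is named here after its values were seen. Of 15 receptors and kinases that signal through Tyrobp or the related adaptor Fcer1g, 11 were tested and 9 were called higher, including Clec5a (2.22), Fcer1g (1.76), and Trem2 (1.42). Fcer1g and Trem2 are also in the list of shared myeloid genes, so the lists are not independent.

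Genes of resident and perivascular macrophages were mixed in level. Of 14 listed, 5 passed the filter, and all of these rose from E13 to E16, Lyve1 by 3.69, F13a1 by 2.45, Siglec1 by 2.28, Cbr2 by 1.93, and Stab1 by 0.60 on the log2 scale. The filter asks for counts in as many teeth as a stage has. A gene with few counts at E13, such as Lyve1, could pass only through later teeth, so its rise is partly set by the filter. The same can hold for genes with few counts in the lists above. Clec5a, Ms4a7, and Fcgr2b, for example, had 298, 437, and 490 counts over all teeth. Lyve1 and Stab1 are made by lymphatic and other endothelial cells as well. Lyve1, a hyaluronan receptor, was at 0.46 ± 0.42 CPM at E13 and 6.06 ± 2.33 CPM at E16, and these stages did not overlap. The other 9 had few counts, and Clec4f and Vsig4 had none in any tooth, which allows up to 3 counts, or 0.109 to 0.159 CPM, per library. Timd4 had 24 counts over all teeth, Folr2 134, and Cd163 201, of which 178 were at E16, and these 5 genes are named after their values were seen. Of the 9 microglia genes 8 were tested and 3 were called higher, among them Sparc and Fcrls, and Sparc is also expressed outside microglia.

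Complement genes other than C1q were examined next. Of 21 genes found by symbol, 14 were tested, and 10 were called higher and 1 lower from E13 to E16. The proteases that join C1q in the first complement complex rose together, C1s1 by 2.71 and C1ra by 2.47 on the log2 scale (edgeR adjusted p = 8.99e-10 and 3.39e-08). The lectin pathway protease Masp1 fell by 0.97 (adjusted p = 9.35e-05). Of 15 receptors and bridging molecules of dead cell uptake, 12 were tested and 6 were called higher, among them Gas6, Itgav, and Pros1, while Axl (-0.28) and Lrp1 (0.00) did not pass the test.

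**Figure D5:**
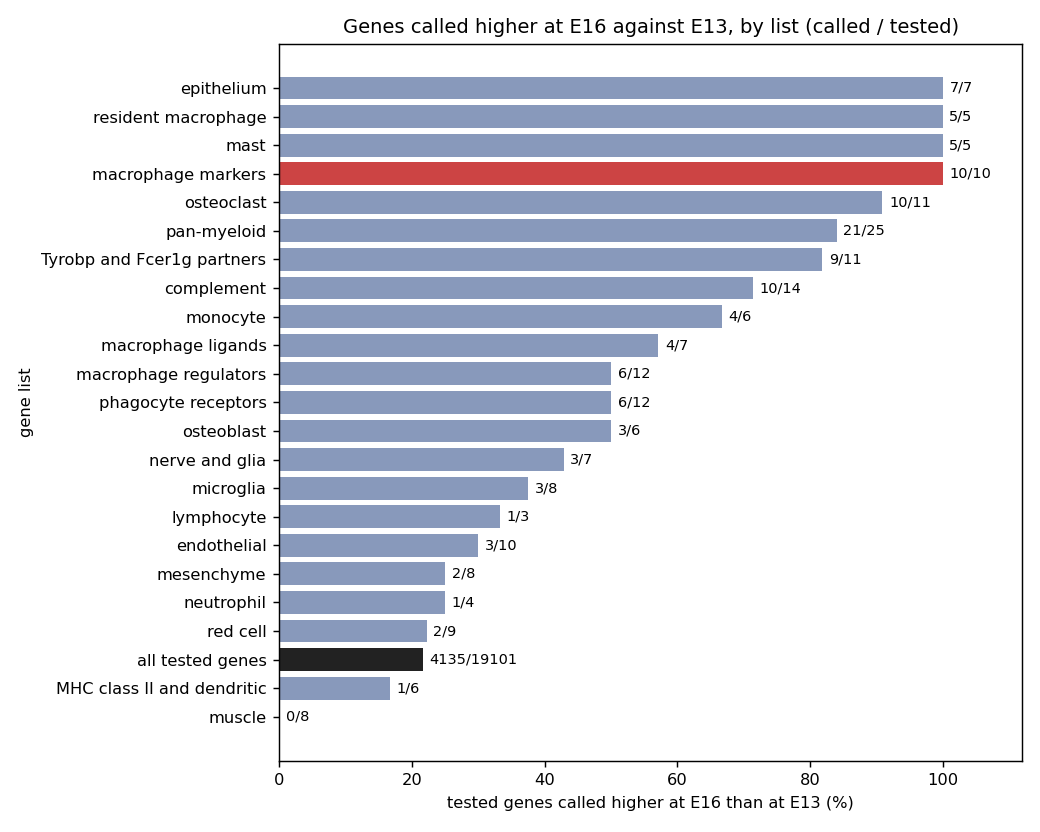
Share of the tested genes of each list that edgeR called higher at E16 than at E13 (horizontal axis, percent, from 0), with the number called and tested beside each bar. The macrophage markers (10 of 10, red) and several other lists, including osteoclast, mast cell, and epithelium genes, are above the bar of all tested genes (21.6%, black).

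Some markers of other cells also changed between E13 and E16. Of the osteoclast genes 10 of 11 were called higher, including Acp5 (3.82), Atp6v0d2 (3.33), Oscar (3.12), and Ctsk (2.93), and the summed level was 75.5 to 132 CPM at E13, 169 to 210 CPM at E14, and 249 to 700 CPM at E16. Osteoclasts share the myeloid origin of macrophages and use Csf1r, Spi1, and Tyrobp. Mast cell genes were called higher in 5 of 5 tested, with Cma1 at 4.33 and Cpa3 at 3.0, and their summed level was 34.8 to 49.5 CPM at E13 and 66.0 to 103 CPM at E16. The limit of the filter given for the resident macrophage genes holds for these genes too. The summed level rests mainly on Kit, which had 22952 counts over all teeth, beside 2298 for Cpa3 and 1603 for Cma1. Of the monocyte genes 4 of 6 tested were called higher, Ly6c1, Plac8, Ace, and Ccr2, and of the genes for MHC class II and dendritic cells 1 of 6, Cd74. All 7 epithelium genes were higher, while 4 of 8 mesenchyme genes were lower and 2 higher, and 3 of 10 endothelial genes were higher. Red cell genes summed to 247 to 460 CPM at E13 and 43.3 to 120 CPM at E16, a fall carried by the embryonic globin Hbb-y (284 ± 62 and 1.79 ± 0.63 CPM), while 2 of 9 tested red cell genes were called higher and 3 lower. Muscle genes were called lower in 5 of 8 and higher in none, lymphocyte genes higher in 1 and lower in 1 of 3, neural and glial genes higher in 3 and lower in 3 of 7, and osteoblast genes higher in 3 of 6. The part of any of these cells in the levels of the members was not tested.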

How the data were processed

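Each library was made from 1 tooth germ. According to the methods and labels, the authors checked and trimmed the reads, aligned them with STAR to GRCm38 with Ensembl release 90, and deposited HTSeq counts per gene without normalization. In the second table the authors deposited salmon estimated counts (GRCm38) for 14185 genes, in whole numbers, and how these genes were selected is not given in the sources used here. Counts of 21 libraries (7 per stage) were fitted with edgeR 4.0.16 in R 4.3.3, with TMM normalization, filterByExpr, a factor for stage, and the quasi-likelihood test, and p values were adjusted over all 19101 genes tested (Benjamini-Hochberg, threshold 0.05). Levels (CPM) were computed here by dividing each count by the scaled library size and multiplying by 1000000, and exon lengths and coordinates are from GENCODE (GRCm38), from which 233 identifiers are absent. Within-tooth ratios used a pseudocount of 0.5. The salmon table was fitted separately in the same way. The smallest chi-square per degree of freedom between teeth of a stage was 7.74, so no pair of libraries matched within sampling noise. Left and right teeth of an embryo are not independent. DESeq2 1.42.0 and limma voom 3.58.1 were alternatives, the latter with a quality weight for each library. The fit was tested on simulated counts. The members and lists were chosen with earlier results of these data known. All members are named. From the other lists, the genes of highest level per length and of largest change among those called are named, and the 10 genes most like the members by correlation.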

Additional observations from a re-analysis of the deposited data

Results flagged for a closer look

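In 38 groups of 6 or 7 teeth, 3 single values lay farther from the rest of their group than Dixon's critical value allows, and chance alone gives about 1 in 20 groups. The Adgre1 level of the left tooth of embryo 3 at E13 was 5.21 CPM, with the next tooth at 3.29 CPM. The Cd68 level of the left tooth of embryo 6 at E16 was 38.7 CPM, with the next tooth at 21.97 CPM. The Cx3cr1 level of the left tooth of embryo 3 at E16 was 4.20 CPM, with the next tooth at 10.7 CPM, and this tooth also had the fewest counts and the lowest mesenchyme and endothelial sums of its stage.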

How the results depend on the processing

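No member changed direction between stages under any alternative. From E14 to E16 the number of members called was 4 with edgeR. It was 8 with limma voom (19.2% of all genes called higher, beside 15% with edgeR), which was run with weights that count deviating libraries less. It was also 8 without the left teeth of embryo 3 at E16 and of embryo 7 at E13, chosen after seeing the data (18.3% of all genes called higher). With each tooth left out in turn it was 3 to 8. The highest was without the left tooth of embryo 3 at E16, where 18.5% of all tested genes were called higher. Leaving out each tooth gave 5 to 8 from E13 to E14 (9.43% to 16.7% of all tested genes called higher) and 9 to 10 from E13 to E16 (20.4% to 25.5%). Summing the teeth of an embryo gave 6, 3, and 9 for the steps to E14, from E14 to E16, and from E13 to E16 (all genes called higher, 10.2%, 13.3%, and 20.3%), and DESeq2 gave 7, 5, and 10 (9.82%, 13.3%, and 17.2%). With embryo number as a replicate block the counts were 4, 4, and 8 (5.72%, 13.48%, and 14.8%). The genes of the other lists called higher from E13 to E14 were then 22 in place of 38 (all genes, 5.72% in place of 11.3%). The embryos of different stages share only a number, and teeth of the same number deviated with a median r of 0.08 (-0.15 to 0.32 over 15 pairs). All genes called from E13 to E14 were 3767 in the fit reported, 5912 with limma voom, 1677 with the block, and 5855 without the left tooth of embryo 3 at E16, and those from E13 to E16 were 7887 and 5210 with the block. The causes were not tested. Counts of 3 to 55 per tooth limit Aif1 and, at E13, Tyrobp.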
